A study of Mus musculus with 6 samples.

Results

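The 10 genes described here encode nuclear-encoded subunits of the mitochondrial ATP synthase and were taken by name from a table of 26199 genes. They are Atp5a1, Atp5b, Atp5c1, Atp5d, Atp5e, Atp5g1, Atp5g3, Atp5j, Atp5k and Atp5o, and all 10 were among the 13262 genes that passed the filter on low values. RNA was sequenced from mouse hearts collected at embryonic 12 days. The 3 control (ctrl) samples carried both floxed alleles of Mrps5 and no Cre (Mrps5 fl/fl), and the 3 mutant (cKO) samples carried the same alleles with the cTNT-Cre transgene (Mrps5 fl/fl; cTNT-Cre). Mrps5 encodes a protein of the small mitochondrial ribosomal subunit, and the cardiac troponin T promoter directs Cre to cardiomyocytes, so the other cells of a mutant heart keep the floxed gene. Each sample was a pool of hearts per the study's methods, and the controls lack Cre, so effects of the transgene and of the deletion cannot be told apart.

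ATP synthase is the rotary enzyme of the mitochondrial inner membrane that makes ATP from ADP and phosphate with the proton gradient that the respiratory chain builds. Protons turn a ring of c subunits in the membrane, the ring turns a central stalk, and the stalk drives the catalytic F1 head, which a peripheral stalk holds still. Nearly all subunits are made in the cytosol and imported, whereas subunits a and 8 (mt-Atp6 and mt-Atp8) are encoded by mitochondrial DNA and made by the mitochondrial ribosome. Heart muscle depends on this enzyme for most of its ATP after birth, and the embryonic heart is still building its mitochondria.

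In mutant hearts, 4 of the 10 genes had FPKM values below the control range in all 3 mutant libraries. They were Atp5k, which encodes subunit e of the membrane part, Atp5g3, which encodes subunit c, and the peripheral stalk genes Atp5j and Atp5o, at 15.8% to 31.2% below the control mean. The 5 genes of the F1 head and central stalk, Atp5a1, Atp5b, Atp5c1, Atp5d and Atp5e, overlapped between the groups, with mutant means at 88.4% to 106% of the control means. Atp5g1, a second subunit c gene, also overlapped. None of the 10 genes had an adjusted p under 0.05 (limma, Benjamini-Hochberg adjustment over all genes tested), while an unadjusted p under 0.05 was found for 4, each with a lower mean in mutant hearts.

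The share of all tested genes called under each rule gives the background for these counts. An adjusted p under 0.05 in either direction was reached by 0.0829% of the 13262 genes, which is 11 genes, and by 0 of 10 ATP synthase genes. An unadjusted p under 0.05 with a lower level in mutant hearts was seen in 9.43% of genes and in 4 of 10 ATP synthase genes. With a higher level it was seen in 5.58% of genes and in 0 of 10. Values that were lower in mutant hearts without overlap were found in 13% of genes and in 4 of 10, and values that were higher without overlap in 7.74% of genes and in 0 of 10. Of all genes, 55.0% had a log2 fold change below 0, with a median of -0.02, and of the 10 genes 9 did, with a median of -0.13. Without control replicate 2 the median of the 10 genes was -0.22, and without control replicate 3 the count with an unadjusted p under 0.05 was 2, Atp5j and Atp5k. Without the library labelled mutant replicate 3, 1 of the 10 genes, Atp5k, and 269 of all genes had an adjusted p under 0.05.

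Replicate values of a group are given below in the order of their numbers, from 1 to 3. Mrps5 (ENSMUSG00000027374), the deleted gene, was at 9.65, 11.4 and 10.4 FPKM in control hearts and at 5.28, 7.41 and 10.4 in mutant hearts, so the library labelled mutant replicate 3 was at the control level (log2 fold change -0.44, standard error 0.19, adjusted p = 0.339). The Mrps5 value was -0.66 without that library and -0.23 without mutant replicate 1. All 17 cardiomyocyte markers examined were detected, which matches the labelled tissue, and all 17 had negative log2 fold changes, with a median of -0.32. Of these, 11 had an unadjusted p under 0.05 (9.43% of all genes, lower), a count that was 5 without control replicate 3, 4 without mutant replicate 1 and 7 without mutant replicate 2. Summed, the cardiomyocyte markers were at 13265 to 15914 FPKM in control and 10691 to 12783 in mutant libraries, without overlap. In heart tissue, fewer cardiomyocytes and less RNA per cardiomyocyte cannot be told apart. The 13 erythroid markers found of 16 listed made up 12.0% to 13.3% of the FPKM of control libraries and 23.5%, 10.8% and 22.0% of mutant libraries 1, 2 and 3, and 12 of the 13 had positive log2 fold changes. Summed endothelial markers were at 233 to 244 FPKM in control and 213 to 242 in mutant libraries, with 4 of 8 lower (Kdr, Tie1, Plvap and Npr3) and 1 higher (Emcn) without overlap, beside 13% and 7.74% of all genes (Kdr, Tie1 and Plvap are named after their values were seen). Epicardial markers were at 136 to 156 and 133 to 178, and cushion mesenchyme and fibroblast markers at 389 to 398 and 350.4 to 474. White blood cell markers were at 23.2 to 28.4 and 20.0 to 23.4 FPKM, and liver markers at 23.6 to 314 and 94.3 to 189. No gene of these 7 marker lists was at 0 in all libraries, and the part of any of these cell types in the ATP synthase values was not tested.

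Subunit levels within a heart were compared as FPKM, which is scaled to transcript length. In control hearts Atp5b, which encodes the catalytic beta subunit, had the highest mean at 734 FPKM, followed by Atp5a1 at 422, Atp5o at 376, Atp5g3 at 344, Atp5c1 at 297, Atp5j at 217, Atp5e at 145, Atp5d at 131, Atp5k at 120.3 and Atp5g1 at 117. Atp5b stood above Atp5a1, Atp5g3 above Atp5c1, Atp5c1 above Atp5j and Atp5j above Atp5e with no overlap of control values. The neighbours Atp5a1 and Atp5o, Atp5o and Atp5g3, and the 4 lowest genes from Atp5e to Atp5g1 overlapped over the 3 controls. Alpha and beta are present in equal numbers in the enzyme, yet mean Atp5b FPKM was 1.74 times that of Atp5a1 in control hearts. The means of the highest and lowest gene were 6.26-fold apart in control hearts and 9.36-fold apart in mutant hearts, where Atp5k, and no longer Atp5g1, was the lowest. The median coefficient of variation of a gene over 3 replicates was 9.70% in control and 5.41% in mutant hearts. Summed over the 10 genes, FPKM was 2788, 2778 and 3145 in control libraries and 2556, 2665 and 2796 in mutant libraries, so the sums overlapped.

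**Figure D1:**
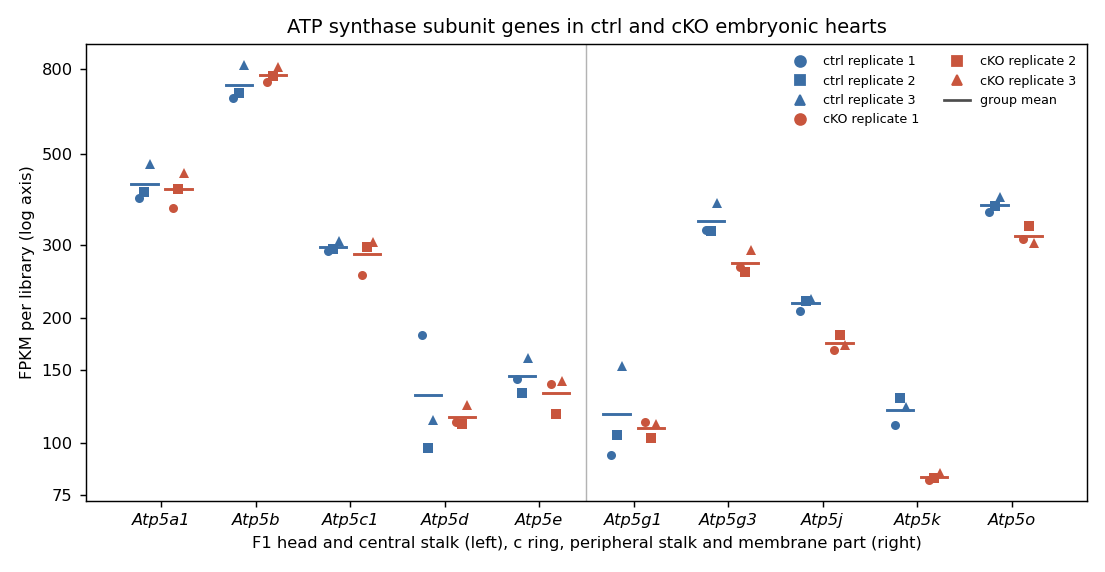
FPKM of each of the 10 genes (log axis) in the 3 ctrl and 3 cKO libraries, with marker shape for the replicate number and a line for the group mean. The ctrl and cKO points of Atp5g3, Atp5j, Atp5k and Atp5o do not overlap, whereas those of Atp5g1 and of the 5 F1 genes on the left do.

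Atp5k (ENSMUSG00000050856) showed the largest difference of the 10 genes. It encodes subunit e, a small membrane protein at the interface where ATP synthase dimers meet. Its FPKM was 111, 128 and 122 in control hearts and 81.4, 82.4 and 84.5 in mutant hearts. The mutant libraries lay close together and below all controls, including the library labelled mutant replicate 3. The control mean of 120.3 ± 8.83 FPKM (SD, n = 3) compared with a mutant mean of 82.8 ± 1.58 (SD, n = 3), 31.2% lower. On the log2 scale the difference was -0.53 (standard error 0.085), with an unadjusted p of 0.000215 and an adjusted p of 0.0663. Over all alternatives the log2 fold change was -0.59 to -0.49 and the adjusted p 0.0402 to 0.213. The adjusted p was under 0.05 in 1 alternative, at 0.0402, in the fit without the library labelled mutant replicate 3. As a percentage of Atp5b FPKM in the same library, Atp5k was at 16.2, 18.3 and 14.9 in control and 10.9, 10.7 and 10.4 in mutant libraries.

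The 250 bases before the RefSeq start sites (GRCm38.p6) were searched on both strands for 8 motifs, and 9 of the 10 genes were matched to a window, with 12 windows in all. The windows of Atp5k and Atp5j are shown as those of the 2 genes with the lowest unadjusted p, and that of Atp5b as that of the gene with a positive log2 fold change. Of the 2 windows of Atp5j, the one with the NRF1 and YY1 matches is printed. Letters in capitals are CGCATGCG (the core of the nuclear respiratory factor NRF1 motif) in Atp5k and Atp5j, AAGATGGCG (YY1) in Atp5j, and CCAAT or GGGCGG (SP1), on either strand, in Atp5b. No capitals overlap another motif.
Atp5k, chr5:108434400-108434649, minus strand: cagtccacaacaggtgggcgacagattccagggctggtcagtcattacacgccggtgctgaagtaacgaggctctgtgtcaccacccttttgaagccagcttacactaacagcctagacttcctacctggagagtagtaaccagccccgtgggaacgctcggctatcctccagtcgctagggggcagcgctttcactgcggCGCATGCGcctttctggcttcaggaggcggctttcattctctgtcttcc
Atp5j (window 2), chr16:84834977-84835226, minus strand: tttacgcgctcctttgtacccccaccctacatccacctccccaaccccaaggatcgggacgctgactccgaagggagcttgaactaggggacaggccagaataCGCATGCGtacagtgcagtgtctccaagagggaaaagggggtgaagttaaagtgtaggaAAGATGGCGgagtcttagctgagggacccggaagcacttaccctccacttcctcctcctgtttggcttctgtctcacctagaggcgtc
Atp5b, chr10:128083057-128083306, plus strand: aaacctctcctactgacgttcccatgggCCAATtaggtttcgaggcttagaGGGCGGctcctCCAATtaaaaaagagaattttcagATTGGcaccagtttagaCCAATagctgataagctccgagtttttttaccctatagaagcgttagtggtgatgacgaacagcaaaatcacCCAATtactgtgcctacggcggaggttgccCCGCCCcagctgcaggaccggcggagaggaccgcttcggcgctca

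The NRF1 core was in 1.55% of all 32851 windows of this length. It was in 2 of the 9 matched genes, Atp5k and Atp5j, where it lay 49 and 147 bases before the start. Atp5g3 and Atp5o, also lower without overlap, lacked it, as did the matched genes whose groups overlapped. Of further subunit genes, Atp5g2 and Atp5l had it and overlapped between groups (log2 fold changes -0.07 and -0.14). Atp5h and Atp5j2 lacked it and were lower without overlap. Whether this motif goes with lower levels was not tested. AAGATGGCG was in 0.606% of all windows and in 1 of the 12, that of Atp5j. CCAAT was in 33.8% of all windows and in 6 of the 12. These came from 5 matched genes, Atp5b, Atp5c1, Atp5e, Atp5g1 and Atp5g3, with 5 matches each in Atp5b and Atp5g1. GGGCGG was in 32.7% of all windows and in 3 of the 12 (25%), from 3 matched genes. The E-box CACGTG was in 6.02% of all windows and in 2 of the 12, those of Atp5g1 and Atp5g3. CCGGAAGT (ETS factors, 2.88% of windows), TATAAA (12.4%) and TGATGNAAN (an ATF4 response element, 3.44%) were in none of the 12 windows. These matches describe the letters of the windows, and binding was not measured.

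After Atp5k, the largest differences were those of Atp5g3, Atp5j and Atp5o. Atp5g3 (ENSMUSG00000018770) encodes subunit c, the proton-carrying protein of the rotating ring. Its FPKM was 326, 324 and 381 in control hearts and 266, 258 and 292 in mutant hearts. All 3 mutant libraries were below all controls, with means of 272 ± 17.9 FPKM (SD, n = 3) for mutant and 344 ± 32.1 (SD, n = 3) for control hearts. On the log2 scale this was -0.33 (standard error 0.10, unadjusted p of 0.0124, adjusted p = 0.216). Without control replicate 3, the highest control library, the unadjusted p was 0.0526.

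Atp5j (ENSMUSG00000022890) encodes coupling factor 6 of the peripheral stalk. It was at 209, 220.5 and 223 FPKM in control hearts and at 168, 182 and 173 in mutant hearts. The groups did not overlap, and the controls spanned less than the distance between the group means of 217 and 174. Its log2 fold change was -0.32 (standard error 0.084, unadjusted p of 0.00498, adjusted p = 0.168). Atp5o (ENSMUSG00000022956) encodes OSCP, the protein that joins the peripheral stalk to the top of the F1 head. Its values were 361, 374 and 393 FPKM in control and 311, 334 and 305 in mutant hearts. The library labelled mutant replicate 3 was the lowest, and the groups did not overlap. For Atp5o the log2 fold change was -0.25 (standard error 0.092, unadjusted p of 0.0263, adjusted p = 0.274), and the unadjusted p was 0.108 with the erythroid level as a covariate. It was also above 0.05 without control replicate 2 or 3 or mutant replicate 1 or 3, in the range of 0.0640 to 0.0898.

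Atp5g1 (ENSMUSG00000006057) encodes the same mature subunit c as Atp5g3 behind a different import sequence. Its FPKM was 93.8, 105 and 153 in control and 113, 103 and 111 in mutant hearts. Control replicate 3 stood above the other 5 libraries, and the groups overlapped. The log2 fold change was -0.07 (adjusted p = 0.870, standard error 0.17), and it turned to 0.13 without that library. A large part of the Atp5g1 transcript is shared with pseudogenes, since 66.0% of its stretches of 50 bases also occur in transcripts of 3 pseudogenes in GENCODE M21, so its reads could be split among copies. The same share was 0% for Atp5g3, 1.24% for Atp5k, 5.00% for Atp5j and 19.1% for Atp5o.

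Atp5g2, the remaining subunit c gene, was at 122, 146 and 160.3 FPKM in control and 117, 149.7 and 141 in mutant hearts. Atp5g3 made up 60.2%, 56.4% and 54.8% of the summed FPKM of the 3 subunit c genes in control and 53.6%, 50.6% and 53.7% in mutant libraries. The share was lower in all mutant libraries, by 4.51 percentage points between the means, with p = 0.1 in a two-sided exact permutation test, the smallest p that 3 against 3 libraries allow. The shares of Atp5g1 (17.3%, 18.2% and 22.1% against 22.7%, 20.1% and 20.4%) and Atp5g2 (22.5%, 25.4% and 23.1% against 23.7%, 29.3% and 25.9%) overlapped, with exact permutation p-values of 0.3 and 0.2. Benjamini-Hochberg adjustment over the 3 shares gave 0.3 for each. Since 87.4% of the 50-base stretches of the Atp5g2 transcript occur in pseudogene transcripts, these shares depend on how reads were assigned.

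The 5 F1 genes overlapped between groups. Atp5a1 (ENSMUSG00000025428) and Atp5b (ENSMUSG00000025393) encode the alpha and beta subunits that alternate around the head and hold the nucleotide sites. Atp5a1 was at 391, 403 and 472 FPKM in control and 369, 411 and 449 in mutant hearts. Atp5b was at 682, 700.3 and 819 in control and 744, 769 and 810 in mutant hearts. For both genes control replicate 3 was the highest of all libraries and the groups overlapped. The log2 fold change was -0.04 (95% interval -0.32 to 0.23, adjusted p = 0.899) for Atp5a1 and 0.08 (95% interval -0.18 to 0.35, adjusted p = 0.785) for Atp5b. The Atp5b value was 0.03 without control replicate 1 and 0.16 without control replicate 3, the lowest and highest with 1 library left out. The ratio of the 2 genes was narrower in controls. Atp5a1 was at 57.3%, 57.6% and 57.6% of Atp5b FPKM in control and at 49.6%, 53.4% and 55.5% in mutant libraries.

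The central stalk genes Atp5c1, Atp5d and Atp5e encode the gamma, delta and epsilon subunits. Atp5c1 (ENSMUSG00000025781) was at 290.2, 295 and 307 FPKM in control and 255, 298 and 306 in mutant hearts. Mutant replicate 1 was the lowest, and the other 5 libraries lay between 290.2 and 307. Limma gave a log2 fold change of -0.06 (95% interval -0.29 to 0.17, adjusted p = 0.821). Atp5e (ENSMUSG00000016252) was at 143, 132 and 161 FPKM in control and 138, 117 and 142 in mutant hearts. Its groups overlapped, with a log2 fold change of -0.13 (95% interval -0.39 to 0.12, adjusted p = 0.623). This value was -0.20 to -0.05 with 1 library left out, nearest 0 without mutant replicate 2, and -0.24 with the erythroid level as a covariate.

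Atp5d (ENSMUSG00000003072) was at 182, 97.1 and 114 FPKM in control and 112, 111 and 124 in mutant hearts. Control replicate 1 stood far above the other 5 libraries. The log2 fold change of -0.13 (95% interval -0.60 to 0.35, adjusted p = 0.816) turned to 0.14 without it. In that library 99.6% of the Atp5d FPKM was assigned to the transcript ENSMUST00000003156, which took 6.02% to 26.9% in the other 5. The 10 genes have 28 transcript rows in the table, and the split was also uneven for 2 further genes. Of Atp5j, the transcript ENSMUST00000023608 took 66.8% to 71.8% in 5 libraries and 22.1% in the library labelled mutant replicate 3, where ENSMUST00000114191 took 76.0%. Read from its most abundant transcript only, Atp5j had a log2 fold change of -0.83 and an unadjusted p of 0.110. Of Atp5c1, ENSMUST00000026887 took between 56.3% and 86.1% with no separation of the groups. For Atp5b and Atp5e the table has 1 transcript, and 1 transcript each of Atp5k and Atp5o took nearly all of the FPKM, with a lowest share of 99.77% for Atp5k in the library labelled mutant replicate 3.

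**Figure D2:**
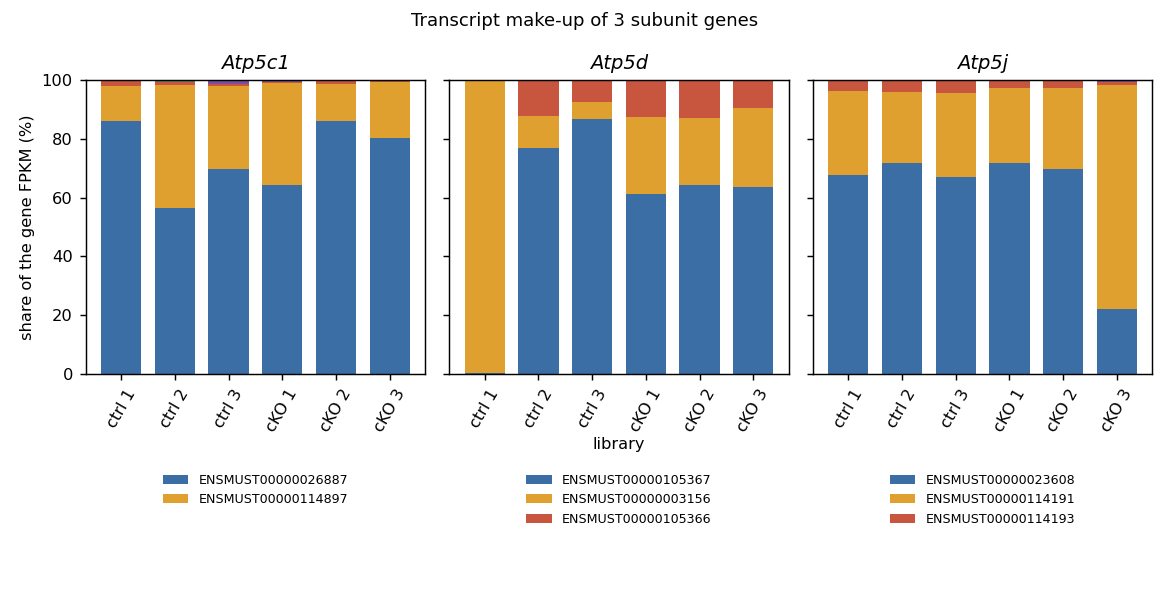
Share of the gene's FPKM (%) assigned to each transcript of Atp5c1, Atp5d and Atp5j in the 6 libraries (each color is a transcript, and transcripts with a mean share of up to 3% have no entry in the key). Control replicate 1 stands apart for Atp5d, and the library labelled cKO replicate 3 stands apart for Atp5j.

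Over all 5 F1 genes, 0 had an unadjusted p under 0.05 and the median log2 fold change was -0.06, whereas 4 of the other 5 genes had an unadjusted p under 0.05 and their median was -0.32. The F1 median was 0.02 without mutant replicate 1, -0.11 without the library labelled mutant replicate 3, -0.04 without control replicate 3, -0.02 with the erythroid level as a covariate and 0.07 with the most abundant transcript of each gene. The median of the other 5 stayed between -0.35 and -0.26 with 1 library left out. The mean log2(FPKM + 1) of the F1 genes was 8.180, 7.998 and 8.202 in control and 8.003, 8.038 and 8.172 in mutant hearts. For the other 5 genes it was 7.59, 7.68 and 7.84 in control and 7.39, 7.40 and 7.42 in mutant hearts. The other genes minus the F1 genes gave -0.59, -0.31 and -0.36 in control and -0.62, -0.64 and -0.75 in mutant libraries. Mutant libraries were lower than all controls, with control replicate 1, the library with high Atp5d, closest to the mutant libraries. This difference is a description over chosen genes and was given no test.

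**Figure D3:**
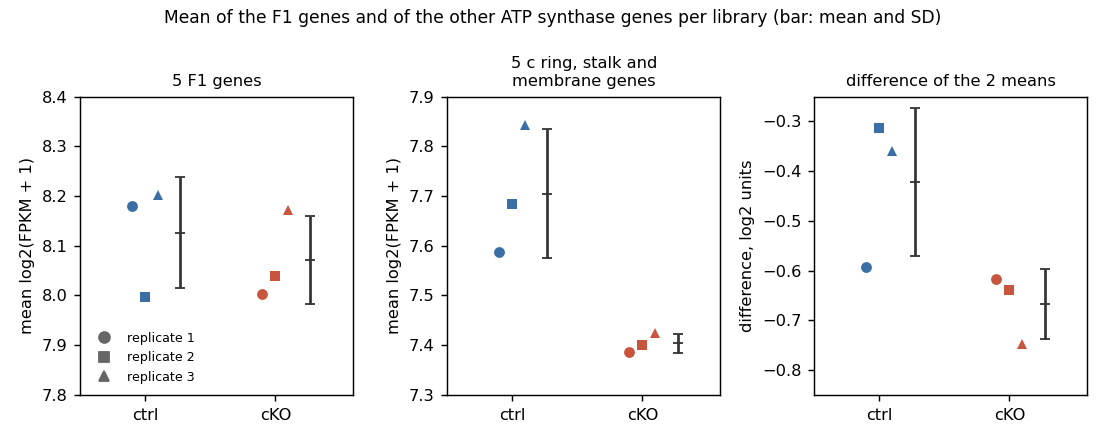
Mean log2(FPKM + 1) per library of the 5 F1 genes (left), of the other 5 genes (middle) and the difference between them (right) in ctrl and cKO hearts, with the group mean and SD beside the points. The F1 means overlap between groups, while the means of the other genes are 7.59 to 7.84 in ctrl and 7.39 to 7.42 in cKO libraries.

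The remaining nuclear-encoded subunits, which are not among the 10 genes, were 7. All 7 had negative log2 fold changes (median -0.14), 3 had an unadjusted p under 0.05, 0 an adjusted p under 0.05, and 4 did not overlap between groups, beside 9.43% and 13% of all genes that were lower by the unadjusted p and without overlap. The count of 3 was 1 without control replicate 2, control replicate 3, mutant replicate 1 or mutant replicate 2, 1 with median ratio scaling or with 10 added to FPKM, and 2 without control replicate 1, with no filter, with the erythroid level as a covariate or without the eBayes trend. The 4 without overlap were 2010107E04Rik, Usmg5, Atp5j2 and Atp5h. 2010107E04Rik, which encodes the 6.8 kDa proteolipid of the membrane part, was at 340.2, 397 and 374 FPKM in control and 273, 269.7 and 304 in mutant hearts. Its log2 difference was -0.39 (standard error 0.10, adjusted p = 0.168). Usmg5, also called DAPIT, was at 584, 602 and 619 against 487, 487 and 559 (log2 fold change -0.24, adjusted p = 0.332). Atp5j2, which encodes subunit f, was at 174, 178 and 201 against 157, 145 and 169 (log2 fold change -0.23, adjusted p = 0.320). Atp5h, which encodes subunit d of the peripheral stalk, was at -0.14 (adjusted p = 0.495), and at -0.08 from its most abundant transcript alone. Atp5f1 (subunit b), Atp5l (subunit g) and Atp5g2 overlapped, with log2 fold changes of -0.11, -0.14 and -0.07, which were -0.05, -0.06 and 0.02 without control replicate 3. Over all 17 nuclear-encoded subunits, 16 were below 0 (55.0% of all genes), 8 did not overlap between groups (13% of all genes were lower without overlap) and 7 had an unadjusted p under 0.05 (9.43% of all genes, lower). The count of 7 was 3 without control replicate 3, and 4 without control replicate 2 or mutant replicate 1. All of these 7 and 8 were among the 12 subunits outside F1, whose median log2 fold change was -0.24.

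**Figure D4:**
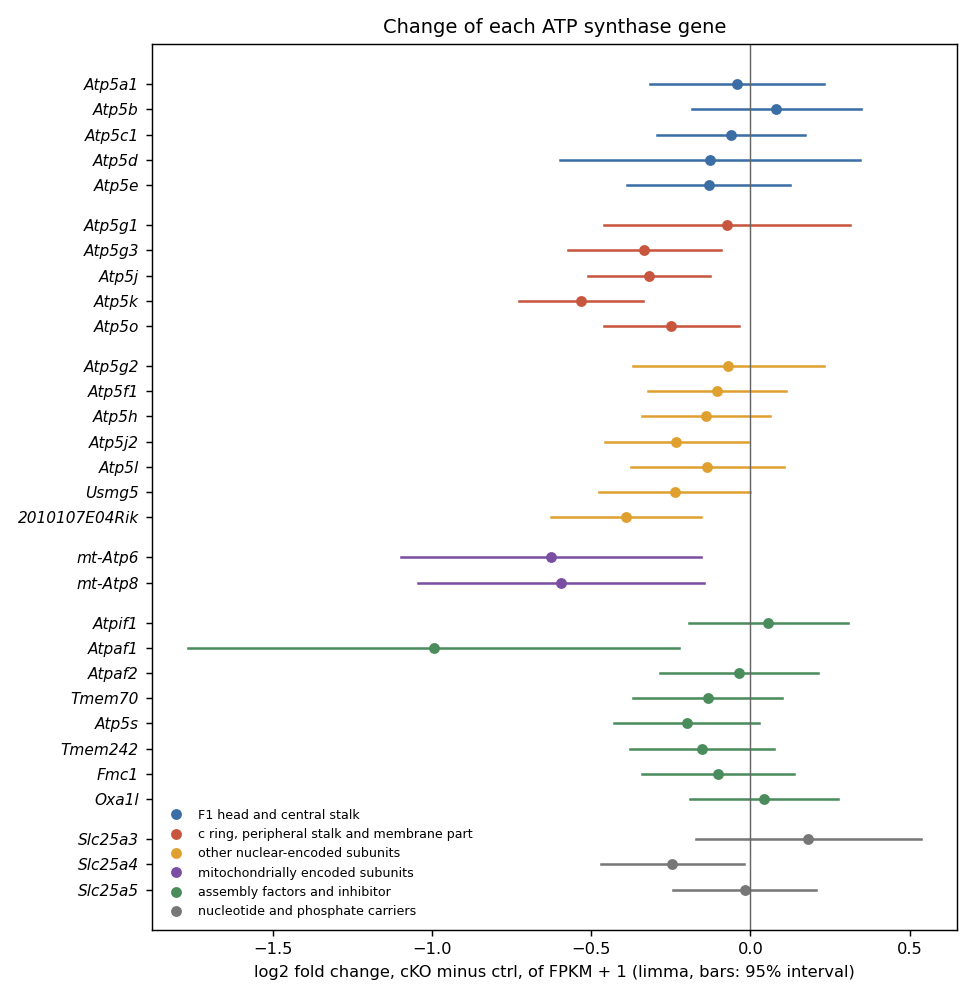
Log2 fold change (cKO minus ctrl, limma on log2 of FPKM + 1) of each ATP synthase gene and of its assembly factors and carriers, with 95% intervals, colored by role. Values run from -0.99 for Atpaf1 to 0.18 for Slc25a3 (0.0035 without the library labelled cKO replicate 3), and the intervals of the 5 F1 genes include 0.

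Genes that were shorter tended to have lower fold changes among the 17 subunits, which is a description over genes of one complex and the same 6 libraries. The log2 fold change and the log2 length of the most abundant transcript correlated at r = 0.63 (Spearman's rho 0.63), and with GC content at r = 0.13 (rho 0.17). Atp5k, 2010107E04Rik and Usmg5 have transcripts of 371, 366 and 362 bases, while Atp5a1 and Atp5b have 2471 and 1916. Atp5e, an F1 gene with a transcript of 421 bases, had a log2 fold change of -0.13. Over all genes with a mean of at least 50 FPKM, the median log2 fold change was 0.06 for 173 genes under 700 bases, 0.01 for 290 genes of 700 to 1500 bases and 0.02 for 611 longer genes. The value below which the lowest 5% of genes lay was -0.42, -0.41 and -0.28 in these 3 classes. The classes include the ATP synthase and respiratory chain genes described here, Atp5k among them. This lower tail is therefore no independent background for the trend among the 17 subunits.

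**Figure D5:**
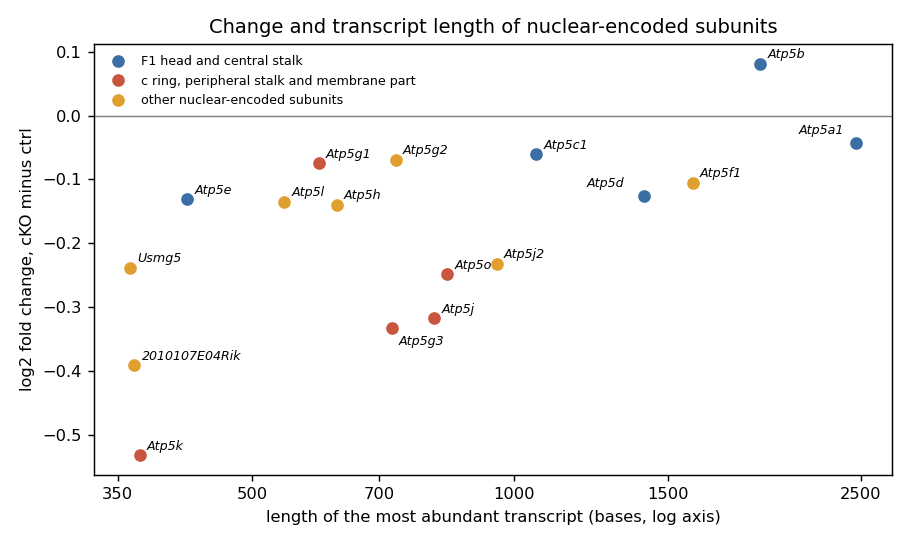
Log2 fold change (cKO minus ctrl) against the length of the most abundant transcript in bases (log axis) for the 17 nuclear-encoded subunit genes, each a labelled point colored by role. The 3 genes with the shortest transcripts are at -0.53 (Atp5k), -0.39 (2010107E04Rik) and -0.24 (Usmg5), and the 2 longest members, Atp5a1 and Atp5b, are at -0.04 and 0.08.

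Both subunits encoded by mitochondrial DNA were lower in mutant libraries without overlap. The gene mt-Atp6, which encodes the proton channel subunit a, was at 10445, 8031 and 9603 FPKM in control and 6053, 6881 and 5264 in mutant hearts. Its log2 fold change was -0.63 (standard error 0.21, adjusted p = 0.229). Its neighbour mt-Atp8 was at 5788, 4822 and 5706 against 3383, 4454 and 3064 (log2 fold change -0.60, standard error 0.20, adjusted p = 0.230). The 2 genes overlap in the mitochondrial genome, so their reads are partly shared. Of the mutant libraries, replicate 2, in which erythroid markers made up 10.8% of FPKM, had the highest value of both. With the erythroid level as a covariate the limma log2 fold changes were -0.48 for mt-Atp6 and -0.37 for mt-Atp8. Their unadjusted limma p-values were then 0.0592 and 0.0798, against 0.0153 and 0.0155 without the covariate. Set against the mean of the 10 nuclear-encoded genes, the mean of the pair gave a log2 ratio of 4.86, 4.53 and 4.61 in control and 4.21, 4.41 and 3.90 in mutant libraries. The ratio was lower in every mutant library, by 0.50 between means on the log2 scale, with p = 0.1 in the two-sided exact permutation test, again the smallest p possible.

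Among 8 genes of assembly factors and the inhibitor, Atpaf1 showed the largest difference. Atpaf1 is a chaperone that binds the beta subunit before the F1 head is put together. It was at 7.68, 7.19 and 7.13 FPKM in control hearts, at 2.52 and 1.66 in the first pair of mutant libraries, and at 6.81 in the library labelled mutant replicate 3. That library was close to the controls, as it was for Mrps5. The log2 difference of Atpaf1 was -0.99 (standard error 0.34, adjusted p = 0.238), and without the library labelled mutant replicate 3 it was -1.45 with an adjusted p of 0.00179. Atp5s, also known as factor B, was at 6.08, 6.44 and 5.42 against 4.84, 5.34 and 5.02 (log2 fold change -0.20, adjusted p = 0.386), without overlap. The other genes overlapped between groups, with log2 fold changes of 0.06 for the inhibitor gene Atpif1, -0.04 for Atpaf2, which acts on the alpha subunit, -0.13 for Tmem70, -0.15 for Tmem242, -0.10 for Fmc1 and 0.04 for the insertase gene Oxa1l. With 1 library left out, the value of Tmem70 was -0.21 to -0.07, that of Tmem242 -0.23 to -0.10 and that of Fmc1 -0.18 to -0.0054.

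Of 4 genes of carriers that bring substrates to the enzyme, 3 passed the filter on low values, and 1 of these was lower without overlap (13% of all genes). Slc25a4, the main ADP/ATP carrier gene of heart and muscle, was at 360.0, 328 and 366 FPKM in control and 273, 307 and 309 in mutant hearts (log2 fold change -0.25, unadjusted p of 0.0362, adjusted p = 0.301). Slc25a5, the carrier gene of many proliferating tissues, was at 278 to 319 in control and 286 to 317 in mutant libraries (log2 fold change -0.02, and 0.01 with median ratio scaling). The phosphate carrier gene Slc25a3 was at 176, 175 and 199 FPKM in control and 177, 190.2 and 266 in mutant hearts, with a log2 fold change of 0.18 that was 0.0035 without the library labelled mutant replicate 3. Slc25a31 was at 0.170 to 0.330 FPKM in control and 0.112 to 0.161 in mutant libraries, without overlap, and at these levels it was not tested.

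Subunits of the respiratory complexes that build the proton gradient were read in the same way. Of 36 complex I genes, 27 had negative log2 fold changes (median -0.08), 8 were lower without overlap and 7 were lower with an unadjusted p under 0.05. Of 9 complex III genes, 7 were below 0 (median -0.18), and 4 were lower by each rule. Of 15 complex IV genes, 12 were below 0 (median -0.11), 5 were lower without overlap, and 4 were lower and 1 higher with an unadjusted p under 0.05. Over all genes tested the same shares were 13% lower without overlap, 9.43% lower and 5.58% higher with an unadjusted p under 0.05. None of these genes had an adjusted p under 0.05. Without control replicate 3 the medians were -0.04, -0.09 and -0.07 for complexes I, III and IV, and 2, 1 and 2 genes were lower with an unadjusted p under 0.05. Without mutant replicate 1 the counts were 4, 1 and 2, and without replicate 2 of either group 2 genes of complex III and 2 of complex IV were counted. With the erythroid level as a covariate the count was 3 for complex I, and with median ratio scaling it was 2 for complex III. The lowest unadjusted p-values in each list belonged to Ndufb3 (-0.32) and Ndufa5 (-0.33) of complex I, Uqcrh (-0.48) and Uqcrb (-0.28) of complex III, and Cox7a1 (-0.58, adjusted p = 0.0645) and Cox8b (-0.78, adjusted p = 0.101) of complex IV. Cox7a1 and Cox8b encode the forms of their subunits that are typical of heart and skeletal muscle, and so does Cox6a2, the 1 gene with a higher level, which was named after its values were seen. Cox6a2 was at 74.6, 74.9 and 91.2 FPKM in control hearts and at 189, 182 and 82.0 in mutant hearts, so the controls spanned the value of the library labelled mutant replicate 3. Its log2 difference was 0.81 (adjusted p = 0.257), and 1.20 without that library (adjusted p = 0.00186). In the same fit Cox7a1 and Uqcrh also had an adjusted p under 0.05, of 0.00814 and 0.0384.

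The genes whose pattern over the 6 libraries was most like the mean log2(FPKM + 1) of the 10 genes were Psme1, Osbpl2, Pdlim5, Ifngr2 and Pdcd5, with Pearson correlations of 0.996, 0.994, 0.990, 0.989 and 0.988. They were the highest of 6255 genes with a mean of at least 10 FPKM, and over 6 libraries from 2 groups such values are a description of likeness alone.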

How the data were processed

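RNA of 3 control and 3 mutant samples was depleted of ribosomal RNA and made into strand-specific libraries, per the labels. The authors deposited FPKM (fragments scaled by transcript length and library size) for 60776 transcripts. The submitters' processing notes name Bowtie2 2.2.8, HISAT2, StringTie 1.3.1, Cuffdiff 2.1.1 and the mm9 build, and the annotation is not given in the sources used here. FPKM holds no read numbers, so depth is unknown. From low values it was roughly 1.15 and 1.39 (control replicates 2 and 3) and 1.18, 1.38 and 1.61 (mutant replicates 1, 2 and 3) relative to control replicate 1. Transcript FPKM was summed per gene, 1 was added, and log2 values were compared with limma 3.58.1 in R 4.3.3 (lmFit, eBayes with trend, two-sided), which was tested on simulated data. Genes with at least 1 FPKM in at least 3 of 6 libraries entered, and p-values were adjusted by Benjamini-Hochberg over all 13262. Adding 1 shrinks the fold changes of genes with low FPKM. Exact permutation tests of single values used scipy 1.17.1. The controls are described as littermates of the mutants, but no label ties a replicate number to a litter, so p-values measure the spread between these pools of hearts.

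The genes and lists were chosen with earlier results of these data known. Named were all 10 genes, Mrps5, all genes of the other subunit, assembly factor and carrier lists, up to 2 genes with the lowest p of each other list, and the 5 genes of most similar pattern. Alternatives were other added values (0.1 and 10), no filter or a mean of at least 5 FPKM, the replicate number as a block, median ratio scaling, rescaling without erythroid and mitochondrial DNA genes, the erythroid level as a covariate, the most abundant transcript alone, eBayes without trend, and each library left out. Promoter windows are from RefSeq GRCm38.p6 and shared stretches from GENCODE M21, neither of the mm9 build, so no coordinates were carried over to the deposited values.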

Additional observations from a re-analysis of the deposited data

How the results depend on the processing

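Direction was the same in all alternatives for Atp5b, Atp5e, Atp5g3, Atp5j, Atp5k and Atp5o, and the cause of the changes below was not tested. The number of genes with an adjusted p under 0.05, 11 of all tested, was 5 with no filter on low values, 4 with the most abundant transcript alone, 6 without the eBayes trend, and 5 to 269 with 1 library left out, 269 without the library labelled mutant replicate 3. Genes with an unadjusted p under 0.05 were 1991, 1314 with a mean of at least 5 FPKM (fewer genes tested) and 1216 to 2166 with 1 library left out. Of the 10 genes, 0 to 1 (Atp5k, without the library labelled mutant replicate 3) had an adjusted p under 0.05 and 2 to 4 an unadjusted p under 0.05 with 1 library left out; the 2 without control replicate 3 were Atp5j and Atp5k. With the most abundant transcript alone, Atp5c1 turned to 0.0685, Atp5d to 1.65 and Atp5s to 0.0413. With the erythroid level as a covariate, Atp5g2 turned to 0.0359, Atpif1 to -0.0750 and Slc25a5 to 0.0383, and Slc25a5 to 0.00558 with median ratio scaling. With 1 library left out, log2 fold changes ran from -0.111 to 0.0411 for Atp5a1, -0.111 to 0.0210 for Atp5c1, -0.31 to 0.14 for Atp5d, -0.22 to 0.13 for Atp5g1, -0.176 to 0.0331 for Atp5g2, -0.00087 to 0.14 for Atpif1, -0.126 to 0.0379 for Atpaf2, -0.0224 to 0.113 for Oxa1l and -0.0782 to 0.0189 for Slc25a5.

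With replicate numbers entered as a block, 4 of all tested genes had an adjusted limma p under 0.05, and 4 of the 10 genes had an unadjusted p under 0.05. The adjusted p of Atp5k was 0.0981. Deviations of same-numbered libraries from their group means correlated at 0.215, 0.108 and 0.0892. Their mean of 0.137 was the highest of the 6 ways to pair the libraries. The labels do not say that a number marks a shared litter, so the main fit did not take the numbers as pairs. Whether they mark pairs stays unknown.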

Other observations

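The vacuolar ATPase, the proton pump of lysosomes and other acidic compartments, is a rotary enzyme related to ATP synthase that consumes ATP and is not in mitochondria. Of 16 genes of its subunits, 12 had positive log2 fold changes (median 0.08), 3 were higher in mutant libraries without overlap and 2 were higher with an unadjusted limma p under 0.05, with 0 at an adjusted p under 0.05. The median was 0.0492 without control replicate 1 and 0.0510 without mutant replicate 2, and 0.0480 after rescaling without erythroid and mitochondrial DNA genes. Atp6v0b was at 40.1, 35.7 and 38.1 FPKM in control and 51.4, 44.2 and 48.0 in mutant hearts (log2 fold change 0.32, adjusted p = 0.174). Its most abundant transcript alone gave 0.17 (adjusted p = 0.611). Atp6ap1, an accessory subunit gene, was at 20.99, 22.4 and 21.8 against 24.5, 25.6 and 25.3 (log2 fold change 0.20, adjusted p = 0.275). The shares of all tested genes under the same 2 rules were 7.74% and 5.58%.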
